A study of Mus musculus with 8 samples.

Results

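Protein tyrosine phosphatases are the enzymes that remove phosphate from tyrosine residues, and they were examined here as a gene family in IL-6-exposed mouse macrophages. The family was taken as every gene whose single annotated symbol on the array begins with Ptpn (non-receptor type) or Ptpr (receptor type) followed by a digit or letter, without pseudogenes and without Ptprcap, which encodes a protein that associates with CD45. This gave 36 of the 19938 genes measured, 17 of the non-receptor type and 19 of the receptor type. Ptprv was left out because RefSeq lists it as a transcribed pseudogene. A gene with more than 1 probe set is represented by its brightest probe set, by the mean of the 8 arrays.

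The macrophages labelled IL6raKO (IL6radmyel in the sample descriptions) were from mice of genotype IL6ralpha flox/flox LysMCre tg/wt, in which Cre is driven by the lysozyme 2 locus in myeloid cells. Control macrophages, labelled Ctrl, were from IL6ralpha flox/flox mice without Cre. In both groups, 10 days of culture in M-CSF at 10 ng/ml turned marrow cells into macrophages, which were starved of serum overnight and treated with murine IL-6 (50 ng/ml) for 4 hours, so no array shows unstimulated cells, and Cre was present in IL6raKO only. Each group has 4 arrays, called biological replicates in the labels, which do not say that each came from a separate animal, so p-values measure only the spread between these samples. The age, sex and strain of the mice, and any pooling, are not stated in the labels. Values are log2 expression per probe set. Array medians lay between 6.31 and 6.35, and the number of arrays limits the precision.

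Signalling by IL-6 runs through its receptor and gp130 to JAK kinases, which phosphorylate the receptor and STAT3 on tyrosine. Phosphatases act at each of these steps. PTP1B (Ptpn1) removes phosphate from JAK2 and TYK2, TC-PTP (Ptpn2) from JAK1 and STAT proteins, and SHP-2 (Ptpn11) docks on phosphorylated gp130 at the same tyrosine as SOCS3. In macrophages SHP-1 (Ptpn6) acts behind inhibitory receptors, and CD45 (Ptprc) and CD148 (Ptprj) keep Src family kinases in a state that can be activated.

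Il6ra, the targeted gene, was at 7.75, 8.10, 7.91 and 7.92 in IL6raKO replicates 1 to 4, against 8.43, 8.40, 8.40 and 8.45 in Ctrl replicates 1 to 4. All IL6raKO values lay below all Ctrl values, with a limma adjusted p of 0.0607 over all genes (difference -0.50, SE 0.07). The position of its probes relative to the floxed exons was not examined. Lyz2, whose locus carries Cre, differed by -0.11 (95% confidence interval -0.27 to 0.05). Macrophage markers were present in both groups. The mean level of 11 of them lay between 11.24 and 11.30 on IL6raKO arrays and between 11.23 and 11.36 on Ctrl arrays. Of the 11, 7 had lower and 4 had higher means in IL6raKO, from -0.24 (Fcgr1) to 0.16 (Cd14). In limma 0 were called and 1 (9.09%), Fcgr1, had an unadjusted p under 0.05, against 7.28% of all genes. Csf1r, the marker of highest p, was at 12.31 to 12.37 in IL6raKO and 12.30 to 12.40 in Ctrl. Ctrl replicate 4 stood apart from the other arrays, at 21.5 on the first principal component where the others lay between -6.6 and 4.8.

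No phosphatase gene passed the test. At a limma adjusted p under 0.05 over all 19938 genes, 0 of the 36 members were called, where 6 genes in all (0.0301%) were. At an unadjusted p under 0.05 in limma, 4 members differed (11.1% of 36), 3 higher and 1 lower in IL6raKO, against 7.28% of all genes, 2.74% higher and 4.54% lower. The same 4 members were those whose groups did not overlap. They were 3 genes whose IL6raKO values all lay above the Ctrl values, a pattern that 2.07% of all genes showed, and 1 gene whose IL6raKO values all lay below, which 2.37% of all genes showed. The 4 genes were Ptpn1, Ptpn4, Ptpre and Ptpn22. The median difference of the 36 members was 0.01, against -0.01 for all genes, with 22 members higher and 14 lower, and 25 of the 36 differed by less than 0.1 in either direction. That median was -0.02 when each array was centred on its 75th percentile, so its sign depends on the scaling.

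**Figure D1:**
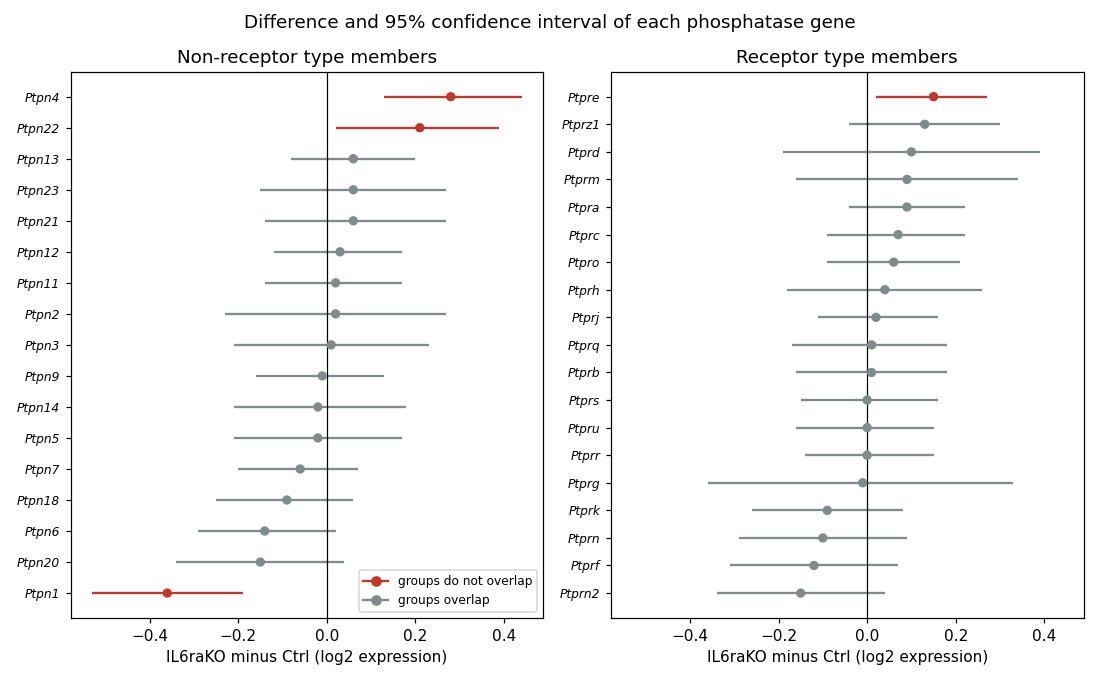
Difference between IL6raKO and Ctrl (horizontal axis, log2 expression, IL6raKO minus Ctrl) for the 17 non-receptor type and the 19 receptor type genes, with lines for the 95% confidence interval from limma. Red marks the 4 genes whose groups do not overlap, of which Ptpn1 (-0.36) is the lowest difference and Ptpn4 (0.28) the highest.

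Ptpn1, which encodes PTP1B, a phosphatase anchored to the endoplasmic reticulum, had the lowest p of the family. It was at 8.39, 8.13, 8.38 and 8.37 in IL6raKO replicates 1 to 4, against 8.79, 8.70, 8.54 and 8.68 in Ctrl replicates 1 to 4. All IL6raKO arrays thus lay below all Ctrl arrays, with a gap of 0.15 between the groups. The mean was 8.32 ± 0.12 in IL6raKO and 8.68 ± 0.10 in Ctrl (SD, n = 4 each), a difference of -0.36 (SE 0.08, 95% confidence interval -0.53 to -0.19) that puts IL6raKO at 77.8% of the Ctrl level. Its p ranked 38 among all 19938 genes, and the limma adjusted p was 0.358, with a range of 0.0968 to 0.626 over the alternatives. With any 1 array left out the difference lay between -0.41 and -0.30. In bulk RNA such a difference cannot be assigned to less RNA per cell or to fewer cells of a type.

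Ptpn4, a cytosolic phosphatase with a FERM and a PDZ domain, was the member furthest in the higher direction. Its values were 8.06, 7.99, 8.07 and 8.14 in IL6raKO replicates 1 to 4, against 7.82, 7.64, 7.91 and 7.76 in Ctrl replicates 1 to 4. The groups were 0.08 apart at their closest. The difference was 0.28 (SE 0.07, 95% confidence interval 0.13 to 0.44), or 121.7% of the Ctrl level, with a limma adjusted p of 0.508 (0.196 to 0.855 over the alternatives). It lay between 0.24 and 0.33 with any 1 array left out. Ptpn3, the closest relative of Ptpn4 in domain structure, differed by 0.01 (95% confidence interval -0.21 to 0.23). Ptpn3 is covered by 12 probe sets, whose differences ran from -0.31 to 0.26, and the groups did not overlap in 1 of them.

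Ptpre encodes PTP epsilon, a receptor-type phosphatase with a cytosolic form that is known to dampen JAK and STAT signalling by IL-6 in mouse leukaemia cells. It was at 9.59, 9.54, 9.60 and 9.58 in IL6raKO replicates 1 to 4, against 9.42, 9.46, 9.47 and 9.38 in Ctrl replicates 1 to 4. The arrays of each group lay close together (SD 0.03 in IL6raKO and 0.04 in Ctrl), with 0.07 between the groups. The difference was 0.15 (SE 0.06, 95% confidence interval 0.02 to 0.27), with a limma adjusted p of 0.66 (0.454 to 0.855 over the alternatives). Ptpra, the most similar family member, which activates Src family kinases, was at 10.10, 9.97, 10.01 and 10.04 in IL6raKO replicates 1 to 4 and at 9.96, 9.95, 9.98 and 9.88 in Ctrl replicates 1 to 4. There the groups overlapped and the difference was 0.09 (95% confidence interval -0.04 to 0.22).

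Ptpn22 encodes PEP, the lymphoid phosphatase, which acts on Src and Syk family kinases in lymphocytes and on Toll-like receptor responses in myeloid cells. Its values were 8.22, 8.23, 8.18 and 8.14 in IL6raKO replicates 1 to 4, against 8.06, 8.08, 7.73 and 8.07 in Ctrl replicates 1 to 4. All IL6raKO arrays were above all Ctrl arrays, by 0.06 at the closest, and Ctrl replicate 3 was far below the other Ctrl arrays. With all arrays the difference was 0.21 (SE 0.08, 95% confidence interval 0.02 to 0.39), with a limma adjusted p of 0.669 (0.527 to 0.855 over the alternatives). Without Ctrl replicate 3 it was 0.12, and the unadjusted p in limma was 0.0806, against 0.0292 with all arrays.

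Without Ctrl replicate 4, the array that stood apart, the differences were -0.36 for Ptpn1, 0.28 for Ptpn4, 0.13 for Ptpre and 0.24 for Ptpn22. Quantile normalization gave -0.39 for Ptpn1, 0.26 for Ptpn4, 0.12 for Ptpre and 0.18 for Ptpn22, again with no overlap for any of the 4, and so did centring each array on its 75th percentile. Markers of other cell types were also compared, among them B cells, in which Ptpn22 and Ptprc are abundant. The 6 measured B cell markers, all at or below the median level of all genes, had lower means in IL6raKO and overlapped between groups, with the median deviation per array between -0.10 and -0.02 in IL6raKO and between -0.01 and 0.18 in Ctrl, and in limma 0 of them were called and 0 had an unadjusted p under 0.05. The 9 measured mast cell and basophil markers also had lower means in IL6raKO, with 0 called and 0 at an unadjusted p under 0.05 in limma. Their median deviation was -0.29, -0.06, -0.06 and 0.21 in IL6raKO replicates 1 to 4. In Ctrl replicates 1 to 4 that median was -0.17, 0.00, 0.08 and 0.32, higher than in IL6raKO at each replicate number. Of the 8 measured T and NK cell markers, 3 (37.5%) had an unadjusted p under 0.05 in limma, against 7.28% of all genes. These were Cd3d (-0.26), Cd8a (-0.17) and Cd3g (0.22), each with overlapping groups, and 0 of the 8 were called. Of 7 dendritic cell markers, 4 had lower and 3 had higher means in IL6raKO, from -0.22 to 0.14. The groups did not overlap in 1 of the 7 (14.3%), Zbtb46 (-0.22). Of 10 neutrophil markers, 7 had lower and 3 had higher means, from -0.22 to 0.04. There the groups did not overlap in 1 (10%), Mpo (-0.20), against 4.44% of all genes. The part of any of these cell types in the differences of the 4 genes was not tested.

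**Figure D2:**
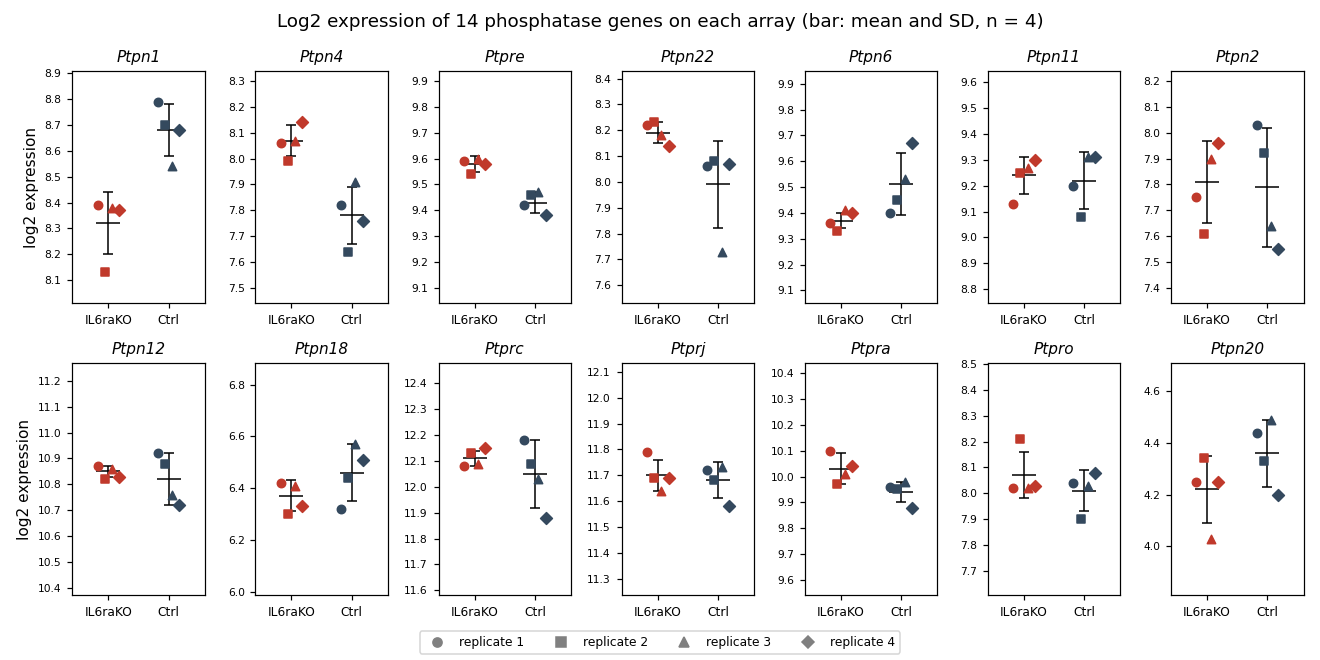
Log2 expression (vertical axis, each panel spanning 0.9 units) of 14 phosphatase genes on the 4 IL6raKO arrays (red) and the 4 Ctrl arrays (dark), with marker shapes for the replicate number and black bars for mean and SD (n = 4). Groups are separate in the first 4 panels (Ptpn1, Ptpn4, Ptpre, Ptpn22) and overlap in the other 10.

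Because STAT3 acts downstream of the IL-6 receptor, the promoters of all members were searched for letters that STAT dimers can bind. The windows run from 250 bases before to 50 bases after a transcript start (RefSeq, GRCm38.p6), and 31 of the 36 members matched, with 45 windows. The palindrome TTCNNNGAA was found in 5 of the 45 windows (11.1%), in Ptpn22, Ptpn23, Ptpre, Ptprh and Ptprj, against 8.3% of all 32851 windows. The stricter TTCCNGGAA was in 0 of 45, against 1.15% of all windows. GAGGAA, a core bound by the macrophage factor PU.1, was found on either strand in 21 of 45 windows (46.7%), against 28.3% of all windows. Some genes have several windows, so these are not independent. By gene the motif was in 16 of 31 members, and no share per gene was computed for all genes. Below, 1 window is shown for each of the 4 genes without overlap, 5′ to 3′ on the gene's strand, with both kinds of match in capitals. For Ptpn22 (2 windows) and Ptpre (3 windows) the window holding TTCNNNGAA was chosen, while Ptpn1 and Ptpn4 have 1 window each. The windows lie at chr2:167932077-167932376 (plus strand) for Ptpn1, chr1:119837022-119837321 (minus strand) for Ptpn4, chr7:135593231-135593530 (plus strand) for Ptpre and chr3:103860027-103860326 (plus strand) for Ptpn22.
Ptpn1: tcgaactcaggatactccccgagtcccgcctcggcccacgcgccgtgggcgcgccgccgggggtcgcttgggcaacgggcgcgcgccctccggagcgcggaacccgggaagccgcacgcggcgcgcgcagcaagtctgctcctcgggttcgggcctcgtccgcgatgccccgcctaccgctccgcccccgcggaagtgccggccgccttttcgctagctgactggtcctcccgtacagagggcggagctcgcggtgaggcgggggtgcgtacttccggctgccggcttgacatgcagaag
Ptpn4: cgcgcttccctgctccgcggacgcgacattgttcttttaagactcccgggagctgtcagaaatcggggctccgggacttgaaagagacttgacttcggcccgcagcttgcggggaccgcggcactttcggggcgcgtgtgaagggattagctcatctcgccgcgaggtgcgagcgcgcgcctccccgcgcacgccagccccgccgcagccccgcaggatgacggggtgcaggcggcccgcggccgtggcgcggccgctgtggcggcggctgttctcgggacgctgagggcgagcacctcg
Ptpre: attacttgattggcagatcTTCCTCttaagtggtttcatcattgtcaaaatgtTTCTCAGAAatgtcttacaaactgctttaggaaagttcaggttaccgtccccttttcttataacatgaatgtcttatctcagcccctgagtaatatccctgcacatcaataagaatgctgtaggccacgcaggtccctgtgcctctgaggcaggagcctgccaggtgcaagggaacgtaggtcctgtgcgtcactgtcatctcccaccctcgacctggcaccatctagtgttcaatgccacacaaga
Ptpn22: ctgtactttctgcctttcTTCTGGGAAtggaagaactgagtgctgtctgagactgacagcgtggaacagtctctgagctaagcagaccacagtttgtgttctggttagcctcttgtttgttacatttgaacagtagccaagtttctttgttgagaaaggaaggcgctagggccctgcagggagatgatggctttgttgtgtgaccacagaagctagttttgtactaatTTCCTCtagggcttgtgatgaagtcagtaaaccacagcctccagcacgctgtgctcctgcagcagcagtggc

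The windows of Ptpn1 and Ptpn4, rich in G and C (74.0% and 71.0%), held neither motif. In the Ptpre window (47.0% G and C) TTCTCAGAA began 197 bases before the start and TTCCTC, the other strand of GAGGAA, 231 bases before it. In the Ptpn22 window (48.7% G and C) TTCTGGGAA began 232 bases before the start and TTCCTC 22 bases before it. No base was shared by the 2 kinds of match. A match of letters does not show binding, and which start is used in these cells was not measured.

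SHP-1 and SHP-2, the phosphatases with SH2 domains, did not pass the test. Ptpn6 (SHP-1) was at 9.36, 9.33, 9.41 and 9.40 in IL6raKO replicates 1 to 4, against 9.40, 9.45, 9.53 and 9.67 in Ctrl replicates 1 to 4. Only the lowest Ctrl array reached into the range of IL6raKO. The difference was -0.14 (95% confidence interval -0.29 to 0.02, limma adjusted p = 0.708, with 0.534 to 0.877 over the alternatives). Ctrl replicate 4 was the highest array, and without it the difference was -0.08, while without Ctrl replicate 1 it was -0.17 and the groups did not overlap. They did not overlap under quantile normalization either, at -0.16. In Ctrl replicate 4 the median deviation was 0.32 for the mast cell and basophil markers, 0.18 for the B cell markers and 0.16 for the 10 neutrophil markers. Each of these was the highest of all 8 arrays, while that of the macrophage markers, -0.07, was the lowest. The part of such cells in the Ptpn6 value was not tested.

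Ptpn11 (SHP-2), the member that binds gp130 itself, was nearly level between genotypes. It was at 9.13, 9.25, 9.27 and 9.30 in IL6raKO replicates 1 to 4, against 9.20, 9.08, 9.31 and 9.31 in Ctrl replicates 1 to 4. These values interleave, and the difference of 0.02 had a 95% confidence interval of -0.14 to 0.17. Socs3, whose protein shares the gp130 docking site with SHP-2, differed by -0.27 (SE 0.08, limma adjusted p = 0.569), and Stat3 fell by 0.57 (SE 0.07, limma adjusted p = 0.0348). The Stat3 call depended on the fit, since limma called 0 of all genes with a replicate block, over all probe sets, without any 1 Ctrl array, and without IL6raKO replicate 3 or 4. Neither Socs3 nor Stat3 belongs to the family.

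Of the other phosphatases known to act on JAK and STAT proteins, none was separated by genotype. Ptpn2 (TC-PTP) was at 7.75, 7.61, 7.90 and 7.96 in IL6raKO replicates 1 to 4, against 8.03, 7.92, 7.64 and 7.55 in Ctrl replicates 1 to 4. Its spread within groups (SD 0.16 in IL6raKO and 0.23 in Ctrl) was among the wider ones of the bright members, and the difference of 0.02 had a 95% confidence interval of -0.23 to 0.27. A second, dimmer probe set of Ptpn2 differed by 0.16 (SE 0.13). Ptpn9 (MEG2), a phosphatase of secretory vesicles that can also act on STAT3, differed by -0.01 (95% confidence interval -0.16 to 0.13). Ptprc (CD45), a marker of white blood cells, was at 12.08, 12.13, 12.09 and 12.15 in IL6raKO replicates 1 to 4, against 12.18, 12.09, 12.03 and 11.88 in Ctrl replicates 1 to 4. Its difference of 0.07 (95% confidence interval -0.09 to 0.22) was 0.01 without Ctrl replicate 4, the lowest array.

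The remaining phosphatases with known roles in macrophages also overlapped between groups. Ptprj (CD148) was at 11.79, 11.69, 11.64 and 11.69 in IL6raKO replicates 1 to 4 and at 11.72, 11.68, 11.73 and 11.58 in Ctrl replicates 1 to 4, and its second probe set gave the same difference of 0.02. Ptpn12 (PTP-PEST), which acts on cytoskeletal adaptors, had 10.87, 10.82, 10.86 and 10.83 in IL6raKO replicates 1 to 4 and 10.92, 10.88, 10.76 and 10.72 in Ctrl replicates 1 to 4. Its SD was 0.02 in IL6raKO and 0.10 in Ctrl, and its difference was 0.03 (95% confidence interval -0.12 to 0.17).

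Ptpro, whose short form is found in macrophages and osteoclasts, had 8.02, 8.21, 8.02 and 8.03 in IL6raKO replicates 1 to 4 and 8.04, 7.90, 8.03 and 8.08 in Ctrl replicates 1 to 4. Replicate 2 was the highest array of IL6raKO and the lowest of Ctrl, and the difference was 0.06 (95% confidence interval -0.09 to 0.21). Ptpn18, a relative of PTP-PEST, had 6.42, 6.30, 6.41 and 6.33 in IL6raKO replicates 1 to 4 and 6.32, 6.44, 6.57 and 6.51 in Ctrl replicates 1 to 4. Its difference was -0.09 (95% confidence interval -0.25 to 0.06). Ptpn7, a phosphatase of MAP kinases in blood cells, differed by -0.06 (95% confidence interval -0.20 to 0.07).

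**Figure D3:**
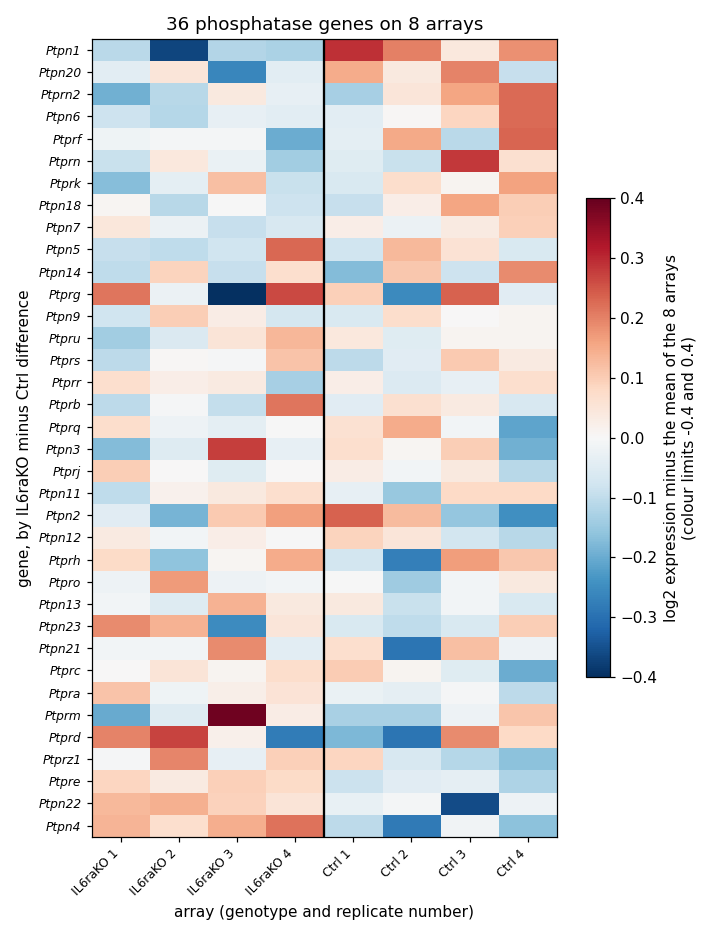
Log2 expression of the 36 phosphatase genes (rows, ordered by the IL6raKO minus Ctrl difference) on the 4 IL6raKO arrays and the 4 Ctrl arrays (columns), each as the deviation from the gene's mean over the 8 arrays, with colours limited at -0.4 and 0.4. In the top row (Ptpn1) and the lowest 3 rows (Ptpre, Ptpn22, Ptpn4) the values of the genotypes do not overlap, and in the other 32 rows they do.

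Members best known from other tissues were mostly dim, and the groups overlapped in each of them. Of the 36 members, 16 had a mean at or below the median of all genes (6.43), where the array method compresses differences. Ptpn20 was the dim member with the lowest p, at 4.25, 4.34, 4.03 and 4.25 in IL6raKO replicates 1 to 4 and 4.44, 4.33, 4.49 and 4.20 in Ctrl replicates 1 to 4 (difference -0.15, 95% confidence interval -0.34 to 0.04, limma adjusted p = 0.725, with 0.578 to 0.92 over the alternatives). Those groups overlapped by 0.14.

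Ptprn and Ptprn2, relatives without tyrosine phosphatase activity that sit in dense-core vesicles of neuroendocrine cells, differed by -0.10 and -0.15. In the LAR family of synaptic and adhesion receptors, Ptprf differed by -0.12, Ptprd by 0.10 and Ptprs by 0.00. With 1 array left out, Ptprf lay between -0.17 and -0.06 and Ptprd between 0.02 and 0.22. The receptors that mediate adhesion between like cells gave -0.09 for Ptprk, 0.09 for Ptprm and 0.00 for Ptpru. Ptprz1, a receptor of the nervous system, differed by 0.13 at the very low level of 3.45 in IL6raKO and 3.32 in Ctrl. None of these 9 genes was called, and in each the groups overlapped.

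Other members lay close to 0. Ptprb, the endothelial phosphatase VE-PTP, differed by 0.01, Ptprg, with a carbonic anhydrase-like domain, by -0.01, Ptprh by 0.04, Ptprq, of inner ear hair cells, by 0.01 and Ptprr, which binds MAP kinases, by 0.00. Among the cytosolic members, Ptpn5, a neuronal enzyme, differed by -0.02, Ptpn13, which holds several PDZ domains, by 0.06, and Ptpn14 and Ptpn21, a pair with FERM domains, by -0.02 and 0.06. Ptpn23, an endosomal sorting protein, differed by 0.06. Precision was similar across the family, with a median SE of 0.08 and a range of 0.06 to 0.16, the widest being that of Ptprg. The 17 non-receptor and the 19 receptor type members had the same median difference of 0.01, with ranges of -0.36 to 0.28 and of -0.15 to 0.15.

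Leaving out single arrays changed the sign of 17 of the 36 differences at least once, the largest of which was 0.09 with all arrays (Ptprm). Members whose sign did not turn could still move in size. Ptpn23 ranged from 0.01 to 0.15, Ptprc from 0.01 to 0.11, Ptprn from -0.15 to -0.02 and Ptprk from -0.15 to -0.05. Where the groups do not overlap, as for Ptpn1, Ptpn4, Ptpre and Ptpn22, leaving out an array cannot turn the sign.

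**Figure D4:**
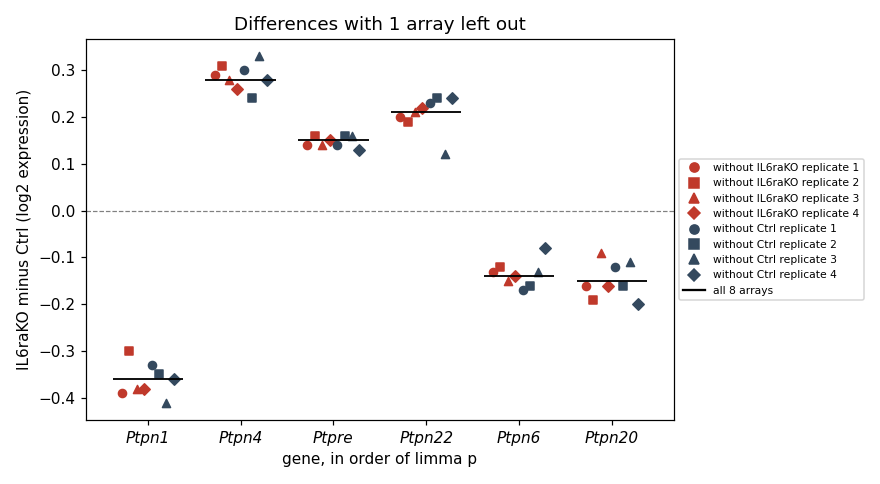
Difference between IL6raKO and Ctrl (vertical axis, log2 expression, IL6raKO minus Ctrl) of the 6 phosphatase genes with the lowest p, each with 1 of the 8 arrays left out (points, with colour and shape for the array left out) and with all arrays (black lines). Ptpn22 without Ctrl replicate 3, at 0.12, and Ptpn6 without Ctrl replicate 4, at -0.08, are set apart from the other points of their genes.

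The kinases and docking proteins that work with these phosphatases were read against the share of all genes at an unadjusted p under 0.05, 7.28%. Of 30 measured tyrosine kinases of myeloid cells 0 were called, with a median difference of 0.02, and 2 (6.67%) had an unadjusted p under 0.05 in limma, both higher in IL6raKO, a share near that of all genes. These were Met, the receptor of hepatocyte growth factor and a substrate of PTP1B, at 0.40 (SE 0.12, limma adjusted p = 0.569), and Axl, a receptor used in the uptake of dying cells, at 0.27 (SE 0.08, limma adjusted p = 0.6). The JAK kinases on which Ptpn1 and Ptpn2 act differed by 0.04 (Jak2), -0.06 (Tyk2) and -0.01 (Jak1). Of 27 measured partners that dock SHP-1 or SHP-2, 0 were called and 0 had an unadjusted p under 0.05 in limma, with a median difference of 0.00. Those of lowest p were Pilra (0.18), Clec12a (0.13), Slamf1 (-0.16) and Sos1 (0.14), each with overlapping groups. The 27 also include Sirpa, an inhibitory receptor (0.00), the adaptor Gab2 (-0.03), and Il6st, which encodes gp130 (0.09).

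Of 6 measured STAT genes 1 was called, Stat3, which fell, and the other 5 lay between -0.02 and 0.03. Of 22 other phosphatases of tyrosine or phosphoinositide signalling 0 were called, with a median difference of -0.01, and 3 (13.6%) had an unadjusted p under 0.05 in limma. These were Dusp1, a MAP kinase phosphatase, at 0.25 (SE 0.07, limma adjusted p = 0.552), Cdc25a, a cell cycle phosphatase, at 0.21 (SE 0.08) and Acp1, the low molecular weight tyrosine phosphatase, at -0.18 (SE 0.08). Inpp5d, which encodes the inositol phosphatase SHIP1, differed by -0.03.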

How the data were processed

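Per the labels, biotin-labelled cDNA of 8 macrophage cultures was hybridised to Affymetrix whole-transcript arrays. The deposited table holds log2 expression values for 35556 probe sets. The submitters' processing notes name RMA and R 2.13.1. No build or further step is given in the sources used here, and the log2 scale was read from the range, 1.96 to 14.2. No read depth exists for arrays.

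Probe sets were named from GEO's platform annotation (21789 with 1 symbol, 1621 with several, 12146 not named), which gave 19938 genes. limma 3.58.1 in R 4.3.3 (lmFit, eBayes) compared IL6raKO with Ctrl on all 8 arrays with no covariate and no filter, with two-sided tests and Benjamini-Hochberg adjustment over all genes. The procedure was tested on simulated data. The members and gene lists were chosen with earlier results of these data known. Values per array are given for members known in cytokine or macrophage signalling, for the 6 of lowest p and for those without overlap between groups. Others are given by difference. From the lists of kinases, docking partners, STAT genes and other phosphatases, up to 4 genes of lowest p are named. Known examples beside them, and the cell type markers named, were picked once values had been seen. List entries on shared or unnamed probe sets were not analysed here. Alternatives were a trended and robust variance, the replicate number as a block, a filter at the median level, quantile normalization, centring on the 75th percentile, averaging each gene's probe sets, testing all probe sets, an adjusted p under 0.1, and each array left out. The ranges of adjusted p given over the alternatives leave out the test of all probe sets.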

Additional observations from a re-analysis of the deposited data

Results flagged for a closer look

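In 6 of 72 sets of 4 values, 1 per phosphatase gene and genotype, 1 array was set apart from the rest of its group. About 3.6 such sets arise by chance. Ptpn1 in IL6raKO replicate 2 was at 8.13, with the other IL6raKO arrays between 8.37 and 8.39, and without that array the difference from Ctrl was -0.30. Ptpn22 in Ctrl replicate 3 was at 7.73, with the other Ctrl arrays between 8.06 and 8.08. Ptpro in IL6raKO replicate 2 was at 8.21, with the others between 8.02 and 8.03. Ptpn21 in IL6raKO replicate 3 was at 6.97, with the others between 6.74 and 6.77. In IL6raKO replicate 4, Ptpn5 was at 6.33 (others no higher than 6.02) and Ptprf at 5.60 (others 5.78 to 5.79). The 6 sets fall on 4 of the 8 arrays, and Ctrl replicate 4 is not among these arrays.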

How the results depend on the processing

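No phosphatase gene was called under any of the 14 other fits, with an adjusted p under 0.1 in the fit of all arrays, or over all probe sets. The lowest limma adjusted p in the 14 fits was 0.0968 (Ptpn1 with a trended and robust variance). The count of all genes called moved to 22 with that variance, 11 among genes above the median level, 12 at an adjusted p under 0.1, 0 over all probe sets, and 0 with the replicate block, which left 4 members at an unadjusted p under 0.05. Over all genes, same-numbered arrays did not deviate together (r between -0.01 and 0.04), and the main fit does not take the numbers as pairs. The mast cell and basophil markers did follow the number, with the lowest median deviation in replicate 1 and the highest in replicate 4 of both groups. Whether same-numbered cultures were prepared together was not tested. With 1 array left out, 0 to 1 genes were called, 3 to 7 members had an unadjusted p under 0.05 (7 without Ctrl replicate 1), 4 to 8 members had no overlap (8 without Ctrl replicate 1), and the median of members was 0.00 to 0.03. That median was -0.02 with centring on the 75th percentile. Under that centring Ptpre and Ptpn22 were no longer at an unadjusted p under 0.05, nor was Ptpn22 under quantile normalization, while under both Ptpn6 was. Il6ra passed with that centring and with quantile normalization (-0.53 in both), and with the filter and the trended variance (-0.50 in both). It did not pass with the block (limma adjusted p = 0.27), with the mean of probe sets (0.059) or with any 1 array left out (0.0528 to 0.222).

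With all arrays kept, 16 member differences near 0 reversed, none of them called. Centring, which shifts all genes of an array alike, gave -0.01 for Ptpn11 and Ptpn2, 0.00 for Ptpn12 and Ptprj, -0.02 for Ptpn3, Ptprb, Ptprq and Ptprs, and -0.03 for Ptprr. Quantile normalization gave -0.02 for Ptpn11, Ptpn3 and Ptprs, 0.01 for Ptpn14 and Ptpn5, 0.02 for Ptpru and 0.03 for Ptprg. With 1 array left out, the members whose sign turned ranged from -0.03 to 0.05 (Ptpn11), -0.01 to 0.06 (Ptpn12), -0.08 to 0.04 (Ptpn14), -0.06 to 0.10 (Ptpn2), -0.02 to 0.11 (Ptpn21), -0.08 to 0.07 (Ptpn3), -0.10 to 0.02 (Ptpn5), -0.05 to 0.01 (Ptpn9), -0.06 to 0.05 (Ptprb), -0.11 to 0.15 (Ptprg), -0.05 to 0.10 (Ptprh), -0.01 to 0.04 (Ptprj), -0.03 to 0.17 (Ptprm), -0.06 to 0.06 (Ptprq), -0.02 to 0.05 (Ptprr), -0.03 to 0.04 (Ptprs) and -0.05 to 0.04 (Ptpru). The cause of these shifts was not tested. With 4 arrays a group, differences well above the SE, 0.06 to 0.16, could also go uncalled. With all arrays, Il6ra at -0.50 (SE 0.07) had a limma adjusted p of 0.0607. Ptpn1 at -0.36 (SE 0.08) had a limma adjusted p of 0.358. The absence of calls therefore does not show that the members were unchanged, and dim genes are further compressed.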
